A study of Mus musculus with 4 samples.

Results

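The genes of Hedgehog signalling examined here were the ligands *Shh* and *Ihh*, the receptor *Ptch1*, the ligand-binding inhibitor *Hhip*, the transcription factors *Gli1*, *Gli2* and *Gli3*, and the co-receptors *Gas1*, *Cdon* and *Boc*. They were taken by gene symbol, as the 24 probe sets whose single symbol in the platform annotation named 1 of these 10 genes (of 18194 on the array), out of 34958 probe sets with a single symbol and 45101 in all. RNA came from BALB/c mouse embryos at E9.75, from the dorsal and from the ventral part of the tracheoesophageal anlage, and the labels name no treatment, allele or transgene. This stretch of foregut gives rise to esophagus and trachea, and its lung bud is at this stage a ventral swelling. It was cut by hand, so each sample held epithelium, mesenchyme and whatever adjoining tissue came with them. There were 2 Affymetrix arrays per part, called biological replicates in the labels. Whether they stem from separate litters or pools is not stated in the labels or the study's methods, and p-values therefore reflect the spread of these arrays alone.

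Hedgehog ligands are secreted proteins. In the embryonic gut they are made by the epithelium and act mainly on the surrounding mesenchyme. Without ligand, PTCH1 holds the membrane protein SMO inactive. Ligand binding releases SMO, GLI2 and GLI3 then act less as repressors and more as activators, and transcription of *Gli1*, *Ptch1* and *Hhip* rises, so these are widely used as readouts of the pathway. PTCH1 and HHIP both bind and sequester ligand. GAS1, CDON and BOC help PTCH1 to bind ligand, and their genes are known to be repressed where signalling is strong. *Shh* is required in the mouse for the separation of trachea and esophagus and for growth of the lung.

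The values are log2 RMA values, in which a difference of 1 is a doubling of the measured signal. The median gap between replicates was 0.08 for the dorsal arrays and 0.26 for the ventral arrays, with ventral replicate 1 above ventral replicate 2 by a median of 0.21. The poly-A control RNAs spiked into each sample exceeded those of replicate 1 on the replicate 2 arrays by 2.19 dorsally and 1.83 ventrally, so the difference within each replicate number is given below for the main genes. The median difference, dorsal minus ventral, of all 13139 tested genes was 0.07, and every difference below is to be read against that value. Each gene was represented in the gene fit by its brightest probe set. A second fit held each of the 23336 probe sets that lay above the 40th percentile of at least 2 arrays. With 2 arrays against 2, the smallest two-sided p of an exact permutation test is 0.333, so calls come from limma, with the variance shared over genes.

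*Shh* and *Hhip* were higher in the ventral part, and *Gas1* and *Cdon* were higher in the dorsal part. The other 6 genes, *Ihh*, *Ptch1*, *Gli1*, *Gli2*, *Gli3* and *Boc*, did not pass the test. Thus 2 of 10 genes were higher dorsally, where 4.79% of all tested genes were, and 2 of 10 were higher ventrally, where 4.09% were. Of the 24 probe sets, 22 were tested in the second fit. Of these, 3 were higher dorsally (3.28% of all tested probe sets were) and 6 were higher ventrally (2.56% of all). Of the 6, 1 was the dim probe set of *Shh* that passed the filter only through its ventral values. The dorsal arrays both lay above the ventral arrays for 10 of the 22 probe sets, against 31.8% of all tested probe sets, and the ventral arrays both lay above the dorsal arrays for 8, against 16.4%. With dorsal replicate 1 or dorsal replicate 2 left out, neither *Gas1* nor *Cdon* passed, and the count of genes higher dorsally was 0 in limma (2 at an unadjusted p under 0.05). Both this count and the ventral count of Hedgehog genes were larger when a ventral array was missing instead. Such counts depend on how many of all genes pass in the same fit. That number was lowest when a dorsal array was missing and highest when ventral replicate 1 was, in either direction. No conclusion about the Hedgehog genes is therefore drawn from these counts. Here and below, 1 array was left out at a time.

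**Figure D1:**
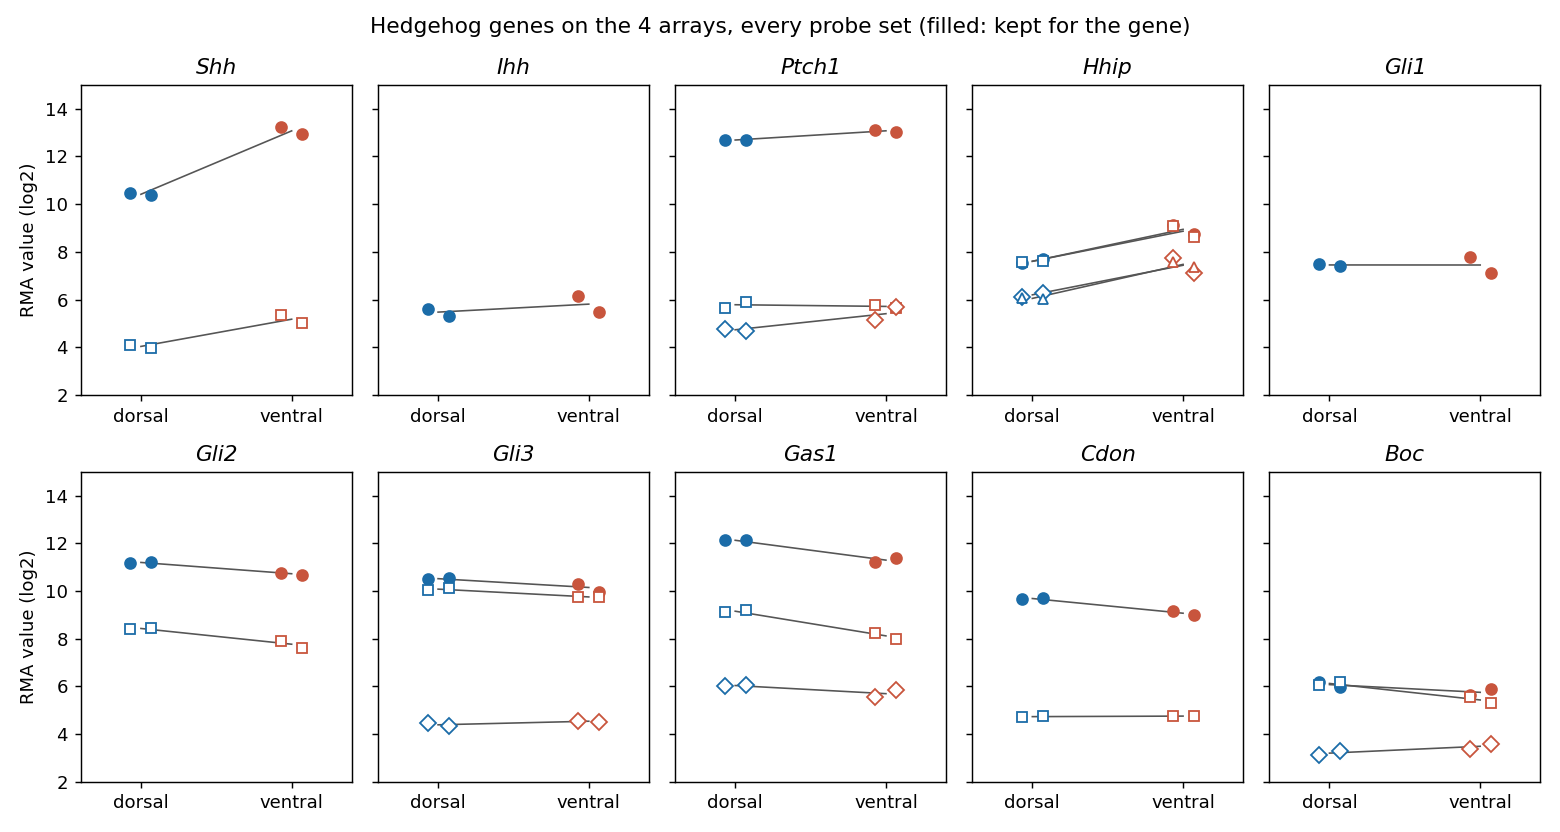
RMA values (log2, vertical axis) of all 24 probe sets of the 10 Hedgehog genes on the 2 dorsal (blue) and 2 ventral (red) arrays, with 1 point per array, a different marker shape for each probe set of a gene, filled markers for the probe set that stands for the gene and a line between the means. The lines of *Shh* and *Hhip* climb towards the ventral part for every probe set, and those of *Gas1* fall.

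The ligand gene *Shh* was 6.32-fold higher in the ventral part. Its brighter probe set, 1436869_at, gave 10.45 and 10.38 dorsally and 13.22 and 12.93 ventrally. The parts did not overlap, and even the dorsal values lay at the 91.8th percentile of their arrays or above. The difference was -2.66 (standard error, SE, 0.17, n = 2 per part, limma adjusted p = 1.83e-10). It was -2.77 between the replicates 1 and -2.55 between the replicates 2. It ranked 42 of 13139 genes from the most ventral, and 0.312% of genes lay further towards the ventral part. The dim probe set 1427571_at gave 4.1 and 3.97 dorsally and 5.34 and 5.01 ventrally. Both dorsal values were under the 40th percentile of their arrays, so it was tested only because of its ventral values. Its difference of -1.14 became -0.45 when the dorsal values were replaced by those percentiles.

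*Ihh*, the ligand of intestine and cartilage, had a single probe set in the middle of the range. It gave 5.61 and 5.33 dorsally and 6.13 and 5.49 ventrally, so the parts overlapped. The difference of -0.33 did not pass the test (SE 0.20, adjusted p = 0.395), and it was -0.66 without ventral replicate 2 and -0.01 without ventral replicate 1. *Dhh*, the ligand of gonad and peripheral nerve and not one of the 10 genes, gave 6.13 and 5.86 dorsally and 5.66 and 5.99 ventrally (difference 0.17, adjusted p = 0.667). Of the 3 ligand genes, *Shh* thus differed by an amount far beyond the spread of the arrays, and the values of the other two overlapped between the parts.

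Since *Shh* marks the epithelium of the tube, the epithelial genes are given beside it. Of 19 tested genes of an epithelial list, 5 were higher ventrally (*Grhl2*, *Foxa1*, *Esrp1*, *Cldn4* and *Cldn7*), 1 was higher dorsally (*Sox2*) and 13 did not pass, with a median difference of -0.43. Their differences ran from -0.77 for *Grhl2* to 0.59 for *Krt19*, and that of *Shh* lay 2.23 below their median. The summed level of the list, taken as log2 of the sum of unlogged values, was 14.06 to 14.09 dorsally and 14.14 to 14.46 ventrally. The ventral count was 10 with quantile normalization once more and 1 at a threshold of 0.01, where 635 and 382 of all genes were higher ventrally. *Ehf* lay below the 40th percentile of all 4 arrays. *Nkx2-1*, the gene of respiratory endoderm, gave only 5.03 to 5.25 on the 4 arrays and differed by -0.10 (adjusted p = 0.785). How much of the *Shh* difference comes with more epithelium in the ventral part was not tested. In such mixed tissue, fewer cells of a type and less RNA per cell cannot be told apart.

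*Shh* is also made by the notochord and the floor plate, which lie dorsal to the gut tube. Of 8 tested genes of a list for these tissues, *Ntn1* (2.32), *Sim1* (1.58) and *Nkx6-1* (0.59) were higher dorsally and none was higher ventrally in limma (1 at an unadjusted p under 0.05), with a median of 0.15. *Ntn1* and *Sim1* were under the 40th percentile of both ventral arrays and were tested only because of their dorsal values, and with those percentiles in place of the ventral values the differences were 1.83 and 0.81. *Foxj1* and *Lmx1a* lay below the 40th percentile of all 4 arrays, and the early notochord genes *T* and *Noto* were not analysed here. The summed level was 12.27 to 12.34 dorsally and 12.42 to 12.75 ventrally. This sum was carried by the keratin gene *Krt8*, at 11.77 and 11.68 dorsally and 12.33 and 11.98 ventrally, which the epithelial list also holds, as it does *Foxa2*. Over the 6 tested genes without these, it was 10.16 to 10.19 dorsally and 9.74 to 9.92 ventrally. Those 6 still hold genes of other lists used below, *Nkx6-1* of foregut mesenchyme and *Ntn1* and *Col2a1* of the described Hedgehog targets. *Chrd*, which encodes a BMP antagonist of the notochord, gave 5.63 and 5.80 dorsally and 5.70 on both ventral arrays. With quantile normalization once more, 3 of the 8 genes were higher dorsally and 2 ventrally, where 479 and 635 of all genes were.

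Among the readout genes, *Hhip* was 2.53-fold higher in the ventral part, and it was so on each of its 4 probe sets. The probe set that stands for the gene, 1455277_at, gave 7.53 and 7.68 dorsally and 9.14 and 8.75 ventrally. The difference was -1.34 (SE 0.18, limma adjusted p = 1.11e-05). It was -1.61 between the replicates 1 and -1.07 between the replicates 2. On 1437933_at the values were 7.59 and 7.62 dorsally and 9.09 and 8.64 ventrally. The dimmer probe sets 1421426_at and 1438083_at gave 6.04 to 6.27 dorsally and 7.13 to 7.75 ventrally. No dorsal array reached a ventral one on any of the 4, and their differences spanned only -1.43 to -1.24, with adjusted p of 0.000391 to 0.00497 in the fit of all probe sets. Of the 13139 genes, 1.16% had a difference further towards the ventral part than that of *Hhip*.

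*Ptch1*, the receptor and itself a readout gene, was among the brightest genes of every array. Its probe set 1428853_at lay at the 98.5th percentile or above and gave 12.68 and 12.70 dorsally and 13.12 and 13.03 ventrally. The parts did not overlap, but the difference of -0.39 did not pass the test (SE 0.17, adjusted p = 0.201). It passed at -0.50 with the values quantile-normalized once more, at -0.39 with a variance trend, at -0.34 without ventral replicate 1 and at -0.43 without ventral replicate 2, with adjusted p-values between 0.0282 and 1 in the set of alternatives. The other probe sets of the gene disagreed with each other. 1450824_at gave 4.78 and 4.69 dorsally and 5.13 and 5.69 ventrally, a difference of -0.67 (adjusted p = 0.0940 among all probe sets). 1439663_at gave 5.66 and 5.91 dorsally and 5.78 and 5.64 ventrally, where the parts overlapped.

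*Gli1*, a transcriptional activator made in response to the pathway, did not pass the test. It gave 7.49 and 7.41 dorsally and 7.77 and 7.12 ventrally, so the ventral arrays lay on either side of both dorsal ones. The difference was 0.0025 (SE 0.20, adjusted p = 0.998), and in the fit of all probe sets its 95% interval ran from -0.47 to 0.48. It was 0.33 without ventral replicate 1, which then passed (adjusted p = 0.0371), and -0.32 without ventral replicate 2 (adjusted p = 0.0931), and the alternatives together gave adjusted p-values between 0.0371 and 1.

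The ligand and its readout genes were thus unequal in the size of the ventral excess, with differences of -2.66 for *Shh*, -1.34 for *Hhip*, -0.39 for *Ptch1* and 0.0025 for *Gli1*. The interval given for *Gli1* uses the variance shared over genes, whereas its own ventral arrays lay 0.65 apart. The differences of different genes come from different probes, and no test between genes was made.

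**Figure D2:**
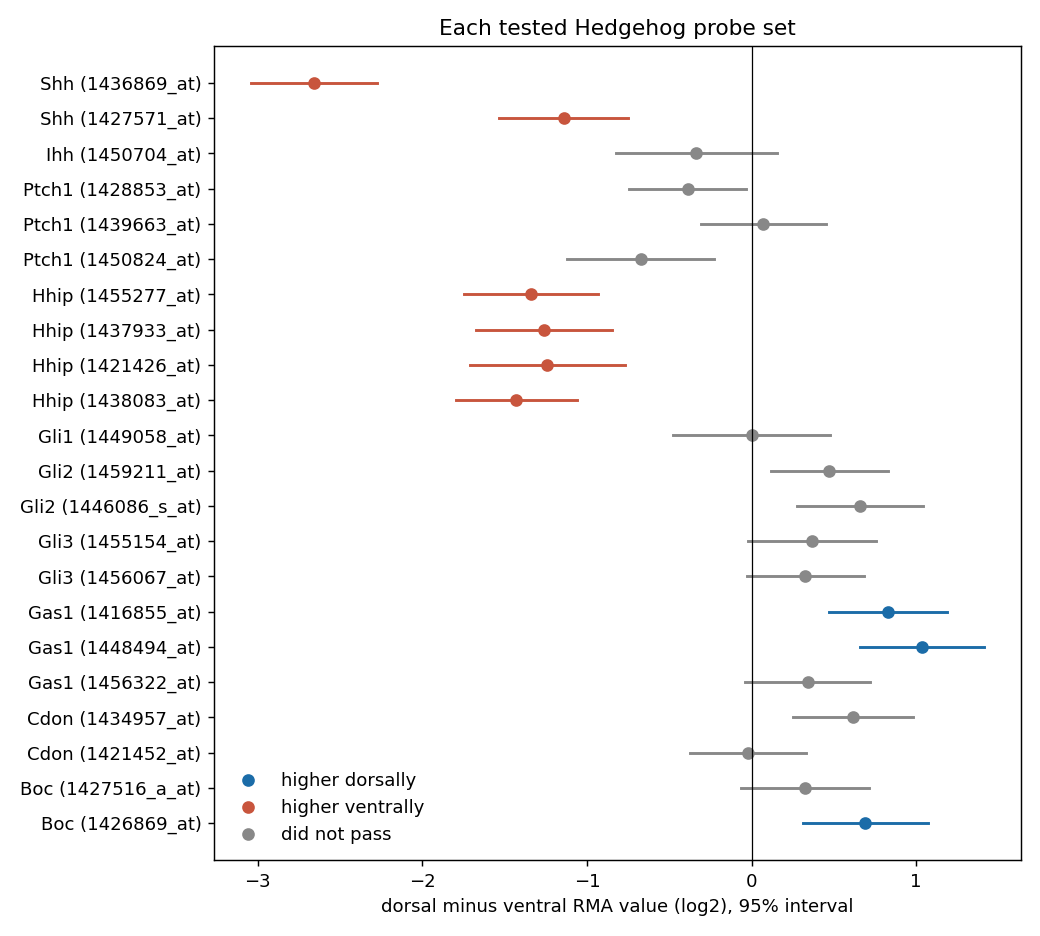
Difference in log2 RMA value, dorsal minus ventral (horizontal axis), with its 95% interval for each of the 22 tested probe sets of the Hedgehog genes, coloured by the limma call in the fit of all probe sets. The 2 probe sets of *Shh* and the 4 of *Hhip* lie to the left of 0, *Gli1* is centred on 0, and the 3 points of *Gas1* lie to the right.

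The start regions of the readout genes *Hhip*, which differed, and *Ptch1*, which did not pass, are shown because both genes are known to respond to GLI proteins. The sequences are from RefSeq (mouse build GRCm38.p6), where 7 of the 10 genes had a window of 250 bases before to 50 bases after the start of the gene. The stretches printed are the 250 bases before the start, 5′ to 3′ on the minus strand that holds both genes, at chr8:80058009-80058258 and chr13:63565736-63565985. Capitals mark CCACCC, the inner 6 letters of the 9-letter GLI binding motif GACCACCCA.
*Hhip*: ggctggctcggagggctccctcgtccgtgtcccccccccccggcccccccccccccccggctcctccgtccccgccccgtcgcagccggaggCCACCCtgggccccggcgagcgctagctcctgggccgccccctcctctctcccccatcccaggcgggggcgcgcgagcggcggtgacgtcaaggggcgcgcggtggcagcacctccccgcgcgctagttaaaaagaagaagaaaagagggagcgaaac
*Ptch1*: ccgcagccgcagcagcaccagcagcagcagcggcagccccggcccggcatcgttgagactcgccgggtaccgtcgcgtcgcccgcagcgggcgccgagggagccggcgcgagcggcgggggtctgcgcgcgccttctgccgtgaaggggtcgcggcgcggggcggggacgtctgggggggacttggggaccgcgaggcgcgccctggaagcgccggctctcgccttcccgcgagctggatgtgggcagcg
The motif GACCACCCA was in none of the 7 windows on either strand, and 0.253% of 32851 mouse promoter windows hold it. The inner CCACCC, which was chosen after these windows had been read and which many other GC-rich motifs contain, was found on either strand in the windows of *Hhip*, *Ihh*, *Gli2* and *Gli3* and in 31.5% of all windows. In the *Hhip* window it begins at position -158 from the start. A match is a run of letters and not a binding site, and a window without one says nothing about GLI proteins elsewhere at the gene.

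Of the 3 co-receptor genes, *Gas1* and *Cdon* were higher in the dorsal part and *Boc* did not pass. *Gas1*, which encodes a membrane-anchored binding protein for SHH, was 1.78-fold higher there. Its brightest probe set, 1416855_at, gave 12.12 and 12.13 dorsally and 11.23 and 11.36 ventrally. The difference was 0.83 (SE 0.17, limma adjusted p = 0.00155). It was 0.89 between the replicates 1 and 0.77 between the replicates 2. The probe set 1448494_at gave 9.10 and 9.19 dorsally and 8.24 and 7.98 ventrally and passed among all probe sets as well (1.03, adjusted p = 0.00391). The dim 1456322_at gave 6.0 and 6.06 dorsally and 5.55 and 5.83 ventrally and did not pass (0.34, adjusted p = 0.373). No dorsal value fell below a ventral one on any of the 3. In the gene fit *Gas1* did not pass without dorsal replicate 1 (0.84, adjusted p = 0.114) or dorsal replicate 2 (0.83, adjusted p = 0.122), the latter being the highest value over the alternatives, which began at 3.38e-06.

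*Cdon*, which encodes an immunoglobulin-type co-receptor, was 1.53-fold higher in the dorsal part in the gene fit. It gave 9.65 and 9.71 dorsally and 9.14 and 8.98 ventrally on 1434957_at, a difference of 0.62 (SE 0.17, adjusted p = 0.0211). This call was near the threshold, and it was lost without dorsal replicate 1 (0.65) or dorsal replicate 2 (0.59). In the fit of all probe sets the same values had an adjusted p of 0.0556, and with the mean of both probe sets the difference was 0.30 (adjusted p = 0.284, within 0.00553 to 0.580 over the alternatives). The other probe set, 1421452_at, lay at the 38.8th to 40.9th percentile of the 4 arrays and gave 4.70 to 4.75 in both parts.

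*Boc*, the paralog of *Cdon*, differed in its call between probe sets. The probe set that stands for the gene, 1427516_a_at, gave 6.18 and 5.96 dorsally and 5.62 and 5.87 ventrally and did not pass (0.32, adjusted p = 0.334). The probe set 1426869_at gave 6.06 and 6.18 dorsally and 5.56 and 5.29 ventrally, and it was higher dorsally among all probe sets (0.69, adjusted p = 0.0408). When probe sets whose name marks several transcripts were set aside, that one stood for the gene and passed (adjusted p = 0.00731, within 0.00731 to 1 over the alternatives). Without ventral replicate 2, 1426869_at had the highest mean of the remaining arrays and again stood for the gene, with a difference of 0.56. That value is therefore not one of 1427516_a_at. The third, 1427517_at, lay below the 40th percentile of all 4 arrays and was not tested. *Lrp2*, which encodes a large endocytic receptor that also binds SHH and is not one of the 10 genes, gave 5.77 and 5.64 dorsally and 4.92 and 4.43 ventrally (1.04, adjusted p = 0.000388).

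The transcription factor genes *Gli2* and *Gli3* had higher values dorsally on each of their tested probe sets, but neither passed the test. *Gli2*, the main activator at the start of signalling, gave 11.18 and 11.21 dorsally and 10.77 and 10.67 ventrally on 1459211_at (0.47, SE 0.17, adjusted p = 0.0941). On 1446086_s_at it gave 8.42 and 8.43 dorsally and 7.92 and 7.61 ventrally (0.66, adjusted p = 0.0529 among all probe sets). *Gli2* passed with the mean of its probe sets (0.57), with a variance trend (0.47), without ventral replicate 1 (0.52) and without ventral replicate 2 (0.42), and the alternatives together gave adjusted p-values between 0.0151 and 0.931.

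*Gli3*, the main repressor in the absence of ligand, gave 10.50 and 10.53 dorsally and 10.31 and 9.97 ventrally on 1455154_at (0.37, SE 0.17, adjusted p = 0.255). On 1456067_at it gave 10.03 and 10.12 dorsally and 9.7 on both ventral arrays. The third, 1450525_at, was below the 40th percentile of all arrays and was not tested. *Gli3* passed without ventral replicate 1 (0.54), when the median of all genes was 0.18 as well, and not in any other setting. Of the 3 Gli genes none passed in limma, and 2 were higher dorsally at an unadjusted p under 0.05.

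Genes listed for the transduction of the signal had small differences, from -0.15 for *Numb* to 0.55 for *Glis2*. Of 25 tested genes of signal transduction and the cilium, where the pathway operates, 1 was higher dorsally and none ventrally in limma (2 and 0 at an unadjusted p under 0.05), with a median difference of 0.15. The 1 gene was *Glis2*, a GLI-related zinc finger gene (0.55, adjusted p = 0.0440). No gene of this list passed without a filter, with quantile normalization once more, with equal array medians, with the mean of all probe sets, or at a threshold of 0.01. *Smo* gave 10.77 and 10.85 dorsally and 10.75 and 10.58 ventrally (0.15, adjusted p = 0.692). *Sufu*, which encodes the cytoplasmic inhibitor of GLI proteins, gave 8.82 and 8.90 dorsally and 8.70 and 8.44 ventrally (0.29, adjusted p = 0.387). *Kif7*, which encodes the kinesin of the cilium tip, differed by 0.16.

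Of 9 tested genes of ligand processing and release, *Scube3* was higher dorsally and none was higher ventrally in limma (2 dorsally and 0 ventrally at an unadjusted p under 0.05), with a median of 0.19. *Scube3*, which encodes a secreted protein of a family that helps release SHH from cells, gave 8.65 and 8.60 dorsally and 8.09 and 7.92 ventrally (0.62, adjusted p = 0.0213). At a threshold of 0.01 no gene of this list passed. *Disp1*, the transporter that releases the lipid-bearing ligand, gave 7.45 and 7.47 dorsally and 7.26 and 7.27 ventrally (0.19, adjusted p = 0.579). *Hhat*, the enzyme that adds palmitate to the ligand, differed by 0.33 (adjusted p = 0.310).

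Genes that have been described as Hedgehog targets in mesenchyme, many of which answer to other signals too, went both ways. Of 34 tested, 8 were higher dorsally and 4 ventrally, with a median of -0.02. The ventral ones were *Myocd* (-4.52), which drives smooth and heart muscle genes, *Bmp4* (-2.53), *Angpt1* (-1.38) and *Osr1* (-0.71). The dorsal ones included *Foxd1* (2.05), *Prdm1* (1.96) and *Ntn1* (2.32, or 1.83 with the ventral values at the 40th percentile). *Foxf1*, the forkhead gene of gut mesenchyme that depends on SHH, gave 9.59 and 9.37 dorsally and 9.58 and 9.10 ventrally (0.14, adjusted p = 0.726), so the parts overlapped. *Foxf2* differed by -0.02 (adjusted p = 0.966) and *Foxl1* by -0.48 (adjusted p = 0.114). With quantile normalization once more, 8 of the 34 were higher dorsally and 7 ventrally, where 479 and 635 of all genes were. At a threshold of 0.01 these counts were 6 and 3, where 424 and 382 of all genes were.

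**Figure D3:**
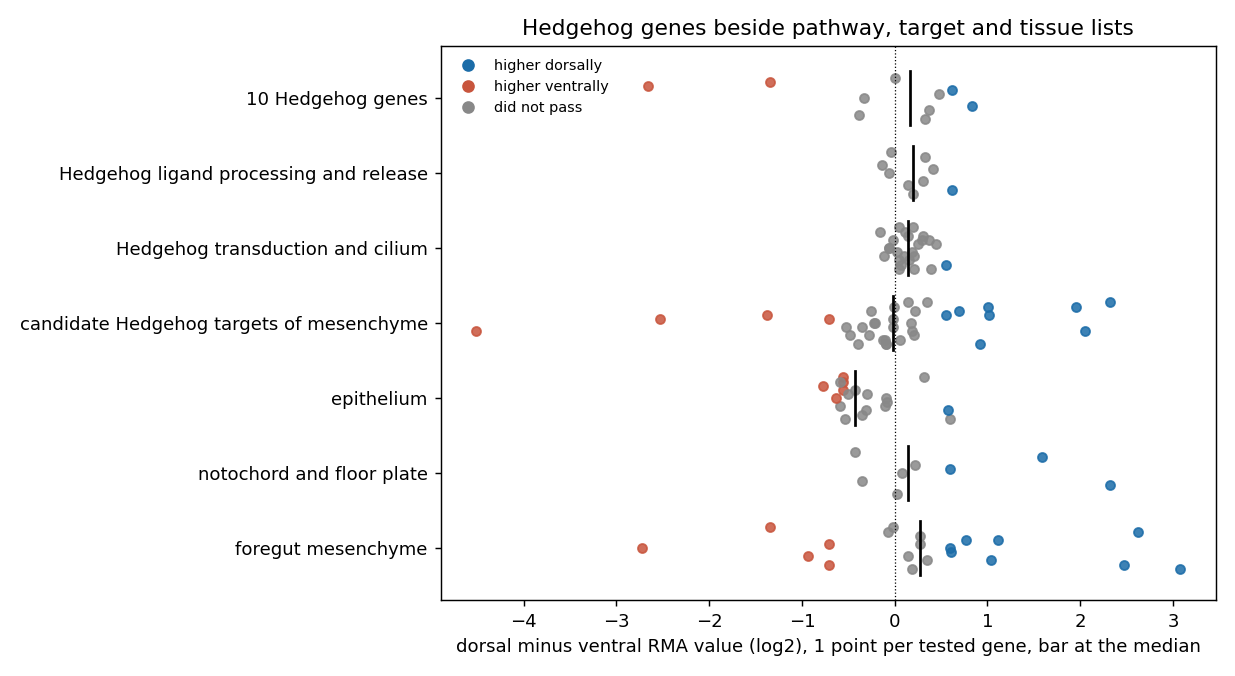
Difference in log2 RMA value, dorsal minus ventral (horizontal axis), of the 10 Hedgehog genes and of each tested gene of 6 lists, where each point is a gene, its colour the limma call and the bar the median of the row. *Shh* is the leftmost point of the first row, and the transduction genes of the third row lie within -0.15 and 0.55.

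Marker genes of mesenchyme and of several adjoining tissues differed between the parts as well. Of 6 tested neural tube genes, 0 were higher dorsally and 1 ventrally in limma (2 and 1 at an unadjusted p under 0.05), with a median of -0.21. *Sox1*, *Olig2* and *Pax7* lay below the 40th percentile of all arrays. Of 12 endothelial genes, 1 was higher dorsally and 0 ventrally, with a median of 0.15. Of 20 foregut mesenchyme genes, 8 were higher dorsally and 5 ventrally, with a median of 0.27, from *Prrx1* (3.08) and *Msc* (2.62) to *Wnt2* (-2.73). The summed level was 15.04 on both dorsal arrays and 14.59 to 14.87 ventrally. At a threshold of 0.01, 6 of the 20 were higher dorsally and 3 ventrally, where 424 and 382 of all genes were. Of 6 tested somite genes, 3 were higher dorsally, led by *Meox1* (2.01), with summed levels of 10.34 to 10.52 dorsally and 9.48 to 9.70 ventrally. *Uncx*, *Myf5* and *Nkx3-2* lay below the 40th percentile of all arrays. Of 10 neural crest and neuron genes, 8 were higher dorsally, led by *Ret* (4.79), and *Ednrb* was higher ventrally (-1.37), with summed levels of 11.45 to 11.48 dorsally and of 10.35 on both ventral arrays. *Foxd3*, 1 of the 8, was under the 40th percentile of both ventral arrays. Of 8 mesothelial genes, 4 were higher dorsally, led by *Bnc1* (3.60), and 2 ventrally, with summed levels of 12.52 to 12.56 and 11.71 to 12.07. *Wt1*, 1 of the 4, was under the 40th percentile of both ventral arrays. With quantile normalization once more, and at a threshold of 0.01, only 1 of the 8 genes was higher ventrally. Of 8 red blood cell genes 4 were higher dorsally, with summed levels of 15.77 on both dorsal arrays and 15.16 to 15.45 ventrally. In the ventral part 12 of 13 heart muscle genes were higher, led by *Myh6* (-6.16), with summed levels of 11.30 to 11.33 dorsally and 14.12 to 14.50 ventrally. Of the 12, *Myh6* and *Ryr2* were under the 40th percentile of both dorsal arrays, and at those percentiles their differences were -5.33 and -2.89. Also higher ventrally were 3 of 5 hepatic genes, led by *Afp* (-3.50), with summed levels of 9.44 to 9.47 and 11.41 to 11.60. The part that these tissues have in the values of *Hhip*, *Gas1*, *Cdon* and the Gli genes was not tested.

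**Figure D4:**
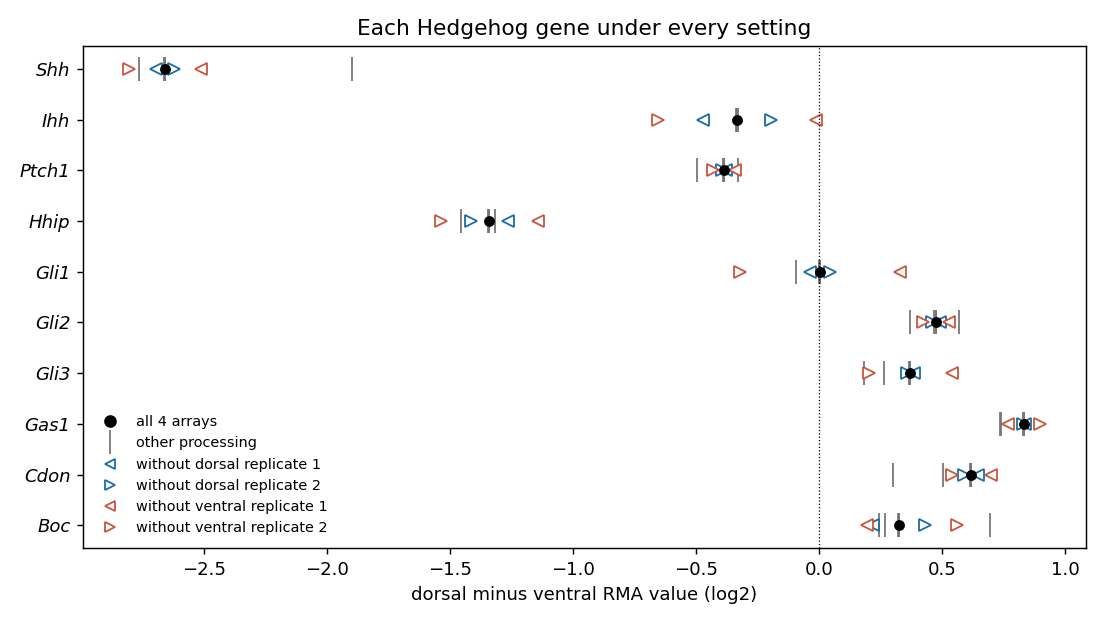
Difference in log2 RMA value, dorsal minus ventral (horizontal axis), of each Hedgehog gene with all 4 arrays (black), without 1 array (triangles) and under the other processing alternatives (grey ticks). *Shh* and *Hhip* stay left of 0 and *Gas1* and *Cdon* right of 0 under each setting shown, while *Gli1* falls on either side.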

How the data were processed

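From 100 ng of total RNA per sample the authors made labelled RNA in 2 cycles, and their notes name RMA as the summary of the scans. The deposited values are read as log2 from their range of 2.36 to 15.02, and the software that ran RMA is not given by those notes or the labels. Symbols came from GEO's platform annotation; 932 probe sets with several symbols and 9211 not named here were left out. The identifiers of 34754 of the 34958 others were found in RefSeq's GRCm38.p6 table, and no symbol changed. A gene was represented by its probe set of highest mean, and genes or probe sets above the 40th percentile of at least 2 arrays were tested in limma 3.58.1 by lmFit and eBayes, dorsal minus ventral (R 4.3.3), two-sided, with Benjamini-Hochberg adjustment over all tested and a threshold of 0.05. The test was also run on simulated arrays with the same spread in both parts and no shift between replicate numbers. That run cannot speak for the wider gap of the ventral arrays, and no call rests on it. The 10 genes and all lists were chosen with earlier results of these data known. Named genes are the 10 with each probe set, up to 6 of each pathway list and 3 of each cell type list by size among those that passed, and genes whose role or low level the text needs; *Osr1*, *Krt19*, *Krt8*, *Ednrb*, the genes low in 1 part and the epithelial genes beyond those were named after their values were seen. The alternatives were other filters, normalizations, probe set choices, eBayes settings and thresholds, the replicate number as a block, and the omission of each array; list counts under them were added after the data were seen. No detection calls were used, and precision is limited by the number of arrays, which was 4.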

Additional observations from a re-analysis of the deposited data

How the results depend on the processing

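The calls of *Shh* (-2.81 to -1.90) and *Hhip* (-1.54 to -1.14) held under every alternative run, and those of *Ihh* and *Gli3* changed in none but the omission of ventral replicate 1 for *Gli3*. *Ihh* and *Boc* were not tested with a filter at the 60th percentile. *Ptch1* passed with quantile normalization once more (-0.50) and with a variance trend (-0.39), *Gli2* with the mean of all probe sets (0.57) and with a variance trend (0.47), and *Boc* with single-transcript probe sets (0.69), while *Cdon* did not pass with the mean of its probe sets (0.30). *Gli1* changed sign with quantile normalization once more (-0.094), with equal array medians (-0.0031), without dorsal replicate 1 (-0.04) and without ventral replicate 2 (-0.32). At a threshold of 0.01, 1 of the 10 genes was higher dorsally and 2 ventrally, where 424 and 382 of all genes were. Of their probe sets, 1 was higher dorsally and 6 ventrally. At 0.10, 3 of the 10 genes were higher dorsally and 2 ventrally, where 790 and 667 of all genes were, with 5 and 7 probe sets.

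Without 1 array, differences ran from -0.43 to -0.34 for *Ptch1*, -0.32 to 0.33 for *Gli1*, 0.42 to 0.52 for *Gli2* and 0.20 to 0.54 for *Gli3*. They ran from 0.77 to 0.90 for *Gas1*, 0.54 to 0.70 for *Cdon* and 0.20 to 0.56 for *Boc*. The brightest probe set was chosen again on the remaining arrays. For *Boc* the low end was thus from 1427516_a_at and the high end from 1426869_at, so its range mixes probe sets. The counts ran from 0 to 5 for Hedgehog genes higher dorsally and 0 to 7 for their probe sets, and from 247 to 4544 for all genes higher dorsally and 276 to 1593 ventrally. With 1 array gone, the variance is estimated from the intact part only, and these counts do not compare directly with those of 4 arrays. Arrays share a replicate number without a stated link, and their deviations correlated at 0.14 across genes. With the replicate block 5 probe sets were higher dorsally instead of 3 and 7 ventrally instead of 6. Of all genes, 790 were then higher dorsally instead of 629 and 678 ventrally instead of 538. No call of the 10 genes changed with the block.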
